A study of Mus musculus with 12 samples.

Results

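The data described here set bone marrow-derived macrophages (BMDM) that had received supernatant of IFNβ-secreting melanoma cells against BMDM that had received control supernatant of the same tumor line. They came from 6 of the 12 RNA sequencing libraries of the series, the 3 labelled Ifnb1eGFP supernatant and the 3 labelled eGFP supernatant, which were chosen by their labels. All 15033 genes that passed a filter on low counts were tested. In both groups, macrophages were grown from the bone marrow of C57BL/6J mice with M-CSF at 20 ng/mL, and IL4 at 10 ng/mL was then given for 48 h to bring them to an M2-like state. The donor cells were YUMM5.2, a mouse melanoma line transduced with a lentiviral vector in which a doxycycline (Dox)-responsive promoter drives Ifnb1 together with eGFP, or eGFP alone. Both donor lines had been given Dox at 1 µg/mL for 72 h, so Dox-treated tumor supernatant was common to the 2 groups. The Ifnb1eGFP supernatant was diluted to 1500 pg/mL of IFNβ as measured by ELISA, the eGFP supernatant was diluted by the same ratio, and BMDM were harvested after 72 h. Each supernatant came from 1 transduced line, and the IFNβ was made from a vector rather than from the tumor cells' own gene. The design text gives 3 mice per condition and does not say whether 1 mouse served both groups. The other 6 libraries were untreated BMDM and BMDM given recombinant IFNβ (rIFNβ). They entered the same fit, and so the filter, the scaling and the estimate of spread behind each SE and p-value. Their own levels and changes are given only where named.

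IFNβ is a type I interferon (IFN). It binds the receptor pair IFNAR1 and IFNAR2, whose kinases activate the transcription factor ISGF3, in which IRF9 is the DNA-binding part. ISGF3 binds interferon-stimulated response elements (ISREs) in the promoters of interferon-stimulated genes (ISGs). ISGs encode antiviral effectors, sensors of foreign nucleic acid, parts of the antigen presentation machinery, chemokines and inhibitors that switch the pathway off. In macrophages, type I IFN is also known to counteract gene programs driven by other cytokines and to lower cholesterol synthesis.

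Library totals ran from 39181022 to 41958862 counts with eGFP supernatant and from 39283435 to 45348457 with Ifnb1eGFP supernatant. The macrophage identity of the cells could be checked with markers. Adgre1, which encodes F4/80, stood at 1517, 1487 and 1484 counts scaled by library size (CPM) in eGFP replicates 1, 2 and 3 and at 1836, 1648 and 1719.9 CPM in Ifnb1eGFP replicates 1, 2 and 3, and this order of replicates is kept throughout. Csf1r, the M-CSF receptor, was at 1135, 1106 and 1107 CPM against 1084, 1189 and 1161 CPM, and these ranges overlapped. Markers of other cells were low beside the 14 macrophage identity markers, which summed to 22142 to 22499 CPM with eGFP and 14059 to 14655 CPM with Ifnb1eGFP supernatant. The summed level of 10 T and NK cell markers was at most 1.22 CPM in any of the 6 libraries, that of 6 erythroid markers at most 0.100 CPM and that of 8 melanocyte and melanoma markers, which include Mlana, Tyr and Dct, 0.429 to 0.780 CPM against 0.372 to 0.912 CPM. B cell markers summed to 16.3 to 26.8 CPM against 2.02 to 2.11 CPM, dendritic cell markers to 4.43 to 5.71 CPM against 1.52 to 1.96 CPM, and neutrophil markers to 30.1 to 31.8 CPM against 49.5 to 54.4 CPM. Fibroblast and stromal markers summed to 71.2, 30.9 and 61.5 CPM with eGFP supernatant and 83.1, 59.0 and 71.4 CPM with Ifnb1eGFP supernatant. In bulk RNA a fall in a gene can come from fewer cells of a type or from less RNA per cell, and these cannot be told apart.

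A pair of libraries stood apart from their groups, and no library was removed for it. In eGFP replicate 2, 84 of the 417 genes that rose past the thresholds given below were at least 2-fold above both other eGFP libraries, against 10 genes in eGFP replicate 1 and 10 in eGFP replicate 3. The summed level of 31 antiviral effector genes was 1466, 2737 and 1329 CPM in the 3 eGFP libraries and 1282 to 1490 CPM in the untreated ones. In Ifnb1eGFP replicate 2, 83 genes with a group mean of at least 1 CPM were at least 2-fold above both other libraries of the group, against 13 and 8 genes in replicates 1 and 3, and 0 of these 83 were counted among the 417. What set these libraries apart was not tested. Where leaving out eGFP replicate 2 moved a printed log2 fold change (log2FC) to a fold over 1.5 times as large or small, or ended a call, the value without it is given as well.

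With Ifnb1eGFP supernatant, 4520 of the 15033 genes (30.1%) were higher and 3761 (25.0%) lower, taking a Benjamini-Hochberg adjusted p up to 0.05 in the quasi-likelihood test of edgeR. The median log2FC of all genes was 0.03. Past the thresholds of the study, which ask for an absolute log2FC of 2 or more with an adjusted p no higher than 0.01, 417 genes (2.77%) were higher and 394 (2.62%) lower. Without eGFP replicate 2, 419 genes were higher and 385 lower past the thresholds among 15320 genes tested. Of the 417 higher genes, 318 were protein-coding, 53 were long noncoding RNAs and 31 were pseudogenes, and of the 394 lower genes the numbers were 326, 41 and 12. The 417 higher genes took 0.731%, 1.13% and 0.669% of all counts with eGFP supernatant and 8.06%, 7.10% and 7.49% with Ifnb1eGFP supernatant. The 394 lower genes went from 2.95%, 2.73% and 2.91% to 0.500%, 0.435% and 0.460%. In the lists that follow, a member is called higher or lower where its adjusted p is 0.05 or less, and a share of members near 30.1% higher or 25.0% lower is what all genes showed.

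The signalling genes came first. Of 18 tested genes for the IFN receptor, ISGF3 and its feedback, 13 were higher and 1 was lower (median log2FC 0.75), and 6 rose past the thresholds. Stat2, which encodes a subunit of ISGF3, stood at 57.9, 125 and 46.6 CPM with eGFP supernatant and at 653, 637 and 655 CPM with Ifnb1eGFP supernatant. Here eGFP replicate 2 was the highest control, and every Ifnb1eGFP library was above it. The log2FC of Stat2 was 3.08 ± 0.30 (SE, adjusted p = 4.93e-06), and 3.63 without eGFP replicate 2. Irf9 rose less, from 33.3, 49.5 and 31.9 CPM to 107, 112 and 106 CPM (log2FC 1.50 ± 0.14, adjusted p = 3.44e-06). Irf1, a transcription factor best known downstream of IFNγ, had a log2FC of 1.71 ± 0.15 (adjusted p = 1.63e-06). Irf8 did not pass the test (133, 136 and 119 CPM against 126, 168 and 136 CPM, log2FC 0.15 ± 0.10, adjusted p = 0.212).

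The feedback inhibitors of the pathway rose with it. Usp18, which encodes a protease that strips ISG15 from proteins and blocks IFNAR2, was at 7.35, 29.8 and 4.74 CPM and then at 298, 262 and 269 CPM (log2FC 4.30 ± 0.53, adjusted p = 3.33e-05). Isg15, the ubiquitin-like modifier itself, went from 6.85, 33.9 and 4.87 CPM to 402, 378 and 376 CPM (log2FC 4.66 ± 0.59, adjusted p = 3.86e-05). Here the eGFP libraries differed among themselves several-fold, and the groups were still far apart. Without eGFP replicate 2 the log2FC was 5.51 for Usp18 and 6.04 for Isg15. Socs1, an inhibitor of JAK kinases, stayed low at 0.429, 0.414 and 0.226 CPM against 1.24, 1.96 and 1.24 CPM (log2FC 2.04 ± 0.33, adjusted p = 3.04e-04). The receptor chains moved little, and in opposite directions: Ifnar2 had a log2FC of 0.57 ± 0.07 and Ifnar1, the 1 lower member, of -0.55 ± 0.04.

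To show the sequence that ISGF3 is known to read, the stretch upstream of the start of 4 key ISGs is printed. These key genes of the signalling and antiviral lists hold core letters of the ISRE nearest to the start, apart from Socs1, whose match lies in bases that annotated transcripts cover. The motif searched was AAANNGAAA or, on the other strand, TTTCNNTTT, in the 250 bases before the start, and its letters are also part of sites for interferon regulatory factors. Sequences are from RefSeq on GRCm38.p6, read 5′ to 3′ on the strand of the gene, and capitals mark the motif. Bases covered by annotated transcripts were searched but are not printed.
Isg15, chr4:156200847-156201068, minus strand: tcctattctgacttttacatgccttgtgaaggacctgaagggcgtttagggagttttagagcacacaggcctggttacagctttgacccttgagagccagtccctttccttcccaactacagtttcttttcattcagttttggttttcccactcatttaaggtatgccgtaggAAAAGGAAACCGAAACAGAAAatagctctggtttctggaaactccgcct
Ifit1, chr19:34640639-34640870, plus strand: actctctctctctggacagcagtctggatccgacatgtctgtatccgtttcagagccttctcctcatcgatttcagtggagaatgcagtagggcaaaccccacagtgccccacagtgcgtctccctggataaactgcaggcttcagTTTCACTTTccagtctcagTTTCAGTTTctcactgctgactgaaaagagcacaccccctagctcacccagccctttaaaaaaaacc
Rsad2, chr12:26456453-26456702, minus strand: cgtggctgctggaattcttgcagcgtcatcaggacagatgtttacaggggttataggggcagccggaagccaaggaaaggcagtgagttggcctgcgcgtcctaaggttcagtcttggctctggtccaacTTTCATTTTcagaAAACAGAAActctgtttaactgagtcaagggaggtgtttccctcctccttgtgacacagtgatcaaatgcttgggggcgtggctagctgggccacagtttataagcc
Ifit3, chr19:34583279-34583498, plus strand: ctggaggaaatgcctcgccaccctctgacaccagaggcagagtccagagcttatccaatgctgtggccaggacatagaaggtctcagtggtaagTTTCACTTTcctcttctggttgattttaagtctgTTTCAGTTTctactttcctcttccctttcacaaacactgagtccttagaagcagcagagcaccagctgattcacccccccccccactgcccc
In Isg15 3 overlapping matches start 77, 71 and 65 bases before the gene. Ifit1 and Ifit3, which lie in the same cluster, both hold the letters TTTCACTTT and TTTCAGTTT, at 104 and 85 bases in Ifit1 and at 156 and 122 bases in Ifit3. Of the 417 genes higher past the thresholds, 262 had a promoter in the table by symbol, and 97 of these (37.0%) held the motif. The share was 14 of 250 (5.60%) for the genes lower past the thresholds, 910 of 10371 (8.77%) for all genes tested and 2915 of 27025 (10.8%) for all genes in the table. Among antiviral effectors 14 of 24 matched genes held it, and among the genes of the signalling list 3 of 15. Irf7, Irf9, Ifitm3 and Oasl2 rose without these letters in the window, which says nothing on where ISGF3 binds.

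Antiviral effectors rose together. All 31 tested members were higher by edgeR, 24 of them past the thresholds (median log2FC 3.44, and 4.03 without eGFP replicate 2). Ifit1 and Ifit3 encode proteins that bind foreign RNA. Ifit1 stood at 10.5, 57.5 and 3.24 CPM with eGFP supernatant and at 767, 637 and 650.4 CPM with Ifnb1eGFP supernatant. Ifit3 was at 15.9, 125 and 7.05 CPM against 2901, 2445 and 2644 CPM. In both, eGFP replicate 2 was more than 5-fold above the higher of the other 2 controls and well below every Ifnb1eGFP library. The log2FC was 4.85 ± 0.77 (adjusted p = 2.46e-04) for Ifit1 and 5.75 ± 0.89 (adjusted p = 2.02e-04) for Ifit3, and 6.64 and 7.86 without that library. Ifit3 and its near-identical neighbor Ifit3b can share reads, so the split between them is uncertain.

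Rsad2 encodes viperin, an enzyme that makes a chain-terminating nucleotide, and Cmpk2 is its neighbor and partner enzyme. Rsad2 rose from 46.4, 228 and 20.3 CPM to 2638, 2281 and 2260.3 CPM (log2FC 4.61 ± 0.71, adjusted p = 1.92e-04) and Cmpk2 from 20.8, 104 and 7.10 CPM to 1516, 1292 and 1269.6 CPM (log2FC 4.95 ± 0.76, adjusted p = 1.77e-04). The GTPase Mx1, which blocks influenza-like viruses in mice that carry an intact gene, went from 11.3, 59.3 and 6.88 CPM to 772, 626 and 733 CPM (log2FC 4.78 ± 0.65, adjusted p = 7.50e-05). In these 3 genes the controls spread over a several-fold range with eGFP replicate 2 at the top, and without it the log2FC was 6.16 for Rsad2, 6.60 for Cmpk2 and 6.29 for Mx1. Oas3, an oligoadenylate synthase that senses double-stranded RNA, was at 22.3, 75.9 and 15.03 CPM against 601, 738 and 653 CPM (log2FC 4.14 ± 0.51, adjusted p = 3.29e-05). Oasl1, a relative without synthase activity that restrains Irf7 translation, had the value 0.531, 2.53 and 0.728 CPM against 102, 111 and 146 CPM (log2FC 6.55 ± 0.35, adjusted p = 3.93e-08). Without eGFP replicate 2 the log2FC was 5.15 for Oas3 and 7.56 for Oasl1.

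Effectors at the membrane and on nucleic acids were higher too. The tetherin gene Bst2 was at 73.0, 99.3 and 59.5 CPM against 469.5, 589 and 456 CPM (log2FC 2.71 ± 0.17, adjusted p = 1.58e-07), and Ifitm3, whose product blocks viral fusion, at 54.3, 88.0 and 50.1 CPM against 931, 903 and 942 CPM (log2FC 3.85 ± 0.20, adjusted p = 3.24e-08). The groups were clearly apart in both. Samhd1, a dNTP hydrolase, rose from 321, 377 and 317 CPM to 1131, 1024 and 1070.4 CPM (log2FC 1.67 ± 0.07), and the double-stranded RNA genes Adar and Eif2ak2 had log2FCs of 1.76 ± 0.12 and 1.91 ± 0.17. Apobec3, a cytidine deaminase, rose by 1.21 ± 0.06.

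**Figure D1:**
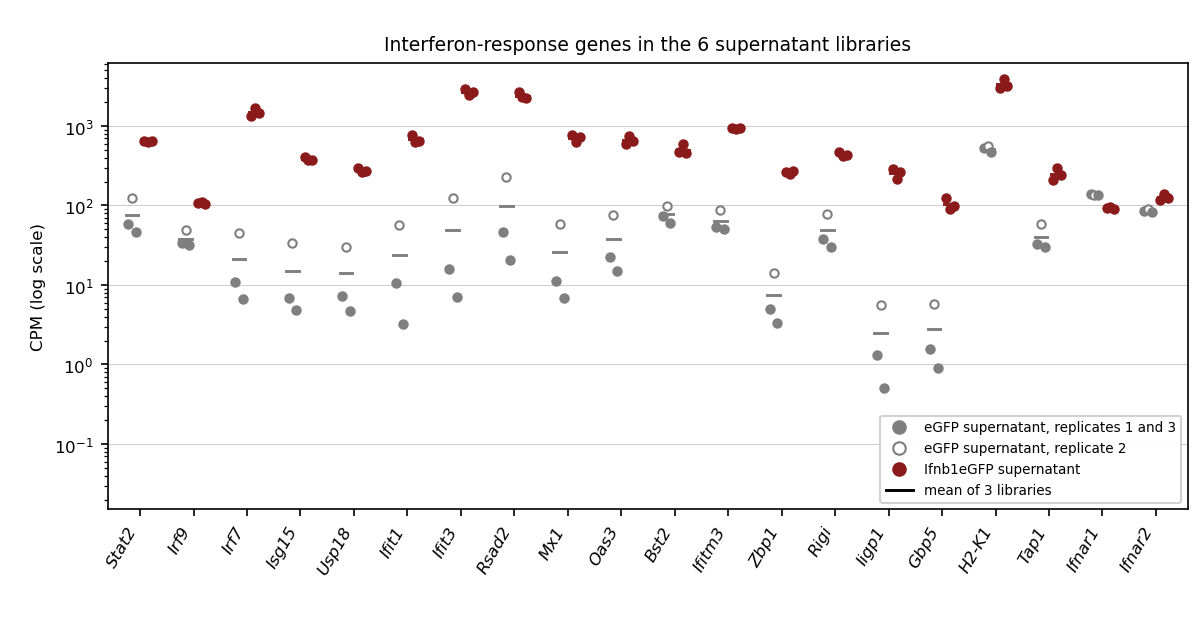
CPM on a log scale of 20 ISGs and receptor genes in each library, with eGFP supernatant in gray (replicate 2 as an open circle) and Ifnb1eGFP supernatant in red, and short lines at group means. The open circle is the highest control, and all red points lie above it, for every gene shown but Ifnar1, which is lower with Ifnb1eGFP supernatant.

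Sensors of nucleic acid were higher in 18 of 19 tested members and past the thresholds in 10 (median log2FC 2.44). Zbp1, a sensor of Z-form nucleic acid that can trigger necroptosis, went from 5.002, 14.2 and 3.34 CPM to 267, 249 and 268 CPM. The RNA helicases that start IFN production were all higher. Rigi was at 37.8, 78.2 and 29.7 CPM against 469.5, 413 and 431 CPM (log2FC 3.17 ± 0.30, adjusted p = 3.29e-06), Ifih1, which encodes MDA5, had a log2FC of 2.96 ± 0.20 and Dhx58, which encodes their regulator LGP2, of 2.61 ± 0.26. Among endosomal receptors, Tlr3 rose from 17.3, 20.1 and 15.6 CPM to 110.1, 92.5 and 97.9 CPM (log2FC 2.50 ± 0.09, adjusted p = 1.83e-09), while Tlr9 and Tlr7 had log2FCs of 2.44 ± 0.10 and 1.74 ± 0.10. For Tlr3, eGFP replicate 2 stood close to the other controls. The DNA sensor Cgas was at 7.55, 8.24 and 6.73 CPM against 20.6, 19.9 and 19.4 CPM (log2FC 1.41 ± 0.07, adjusted p = 2.23e-08). Its adaptor Sting1 was the 1 lower member, at 31.0, 33.8 and 35.2 CPM against 30.2, 27.2 and 31.0 CPM (log2FC -0.18 ± 0.07, adjusted p = 0.0444), and it was not called without eGFP replicate 2 (log2FC -0.17, adjusted p = 0.109). The DNA-binding Ifi200 genes Ifi204 and Ifi205 rose by 3.29 ± 0.27 and 6.13 ± 0.57 on the log2 scale, and Ifi205 by 7.65 without eGFP replicate 2.

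Every tested GTPase of cell-autonomous defence, 16 of 16, rose past the thresholds (median log2FC 4.12, and 4.69 without eGFP replicate 2). These immunity-related GTPases (IRGs) and guanylate-binding proteins (GBPs) coat and break vacuoles that hold pathogens, and many are known mainly as targets of IFNγ. Iigp1 stood at 1.31, 5.65 and 0.502 CPM with eGFP supernatant and at 284, 217 and 262 CPM with Ifnb1eGFP supernatant, a 101-fold rise (log2FC 6.66 ± 0.51, adjusted p = 6.52e-07). Gbp5, which also promotes inflammasome activity, was at 1.57, 5.80 and 0.903 CPM against 124, 91.6 and 98.8 CPM (log2FC 5.24 ± 0.43, adjusted p = 1.19e-06). Without eGFP replicate 2 the log2FC was 8.13 for Iigp1 and 6.40 for Gbp5. Gbp4 and Tgtp2 were under 12 CPM in every control and reached 53.3, 43.0 and 51.5 CPM and 650.2, 526 and 557 CPM. Igtp, Gbp2 and Irgm1 had higher controls and smaller log2FCs of 3.73 ± 0.23, 3.53 ± 0.29 and 3.14 ± 0.27. In each of these genes the 3 Ifnb1eGFP libraries lay above all 3 controls, with eGFP replicate 2 the nearest control. Tgtp1 and Tgtp2 are near-identical copies, and their separate values are uncertain.

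Many of the rising genes were neighbors. Among tested protein-coding genes in their order along each chromosome (GENCODE M39 positions on GRCm39), 14 runs of at least 4 consecutive genes all rose past the thresholds. These runs held 86 of the 318 protein-coding genes that rose past the thresholds. No such run was found among the 326 protein-coding genes that fell past them. The longest run, 11 genes over 563.4 kb of chromosome 1 from Ifi206 to Ifi205, is the Ifi200 cluster, with log2FCs from 2.13 to 7.45. The top value, that of Ifi208, was 9.32 without eGFP replicate 2. A run of 9 genes in 708.1 kb of chromosome 1 ends at Sp100, and holds Sp110 and Sp140, which encode nuclear body proteins. A run of 10 genes in 273.4 kb of chromosome 11 reaches from Irgm1 to Ifi47 and contains Tgtp1 and Tgtp2. The Oas cluster on chromosome 5 gave a run of 7 genes in 178.1 kb, from Oas2 to Oas1a, and the Ifit cluster on chromosome 19 gave 6 genes in 111.9 kb, from Ifit2 to Ifit1.

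The GBP genes formed a run on each of their chromosomes, 5 genes from Gbp5 to Gbp2 on chromosome 3 and 4 genes from Gbp8 to Gbp10 on chromosome 5. On chromosome 17 the class I genes gave 5 neighbors from H2-Q4 to H2-Q10 and 6 from H2-T24 to Gm19684. The other runs were 6 genes from Ms4a4c to Ms4a4d on chromosome 19, 5 genes from Phf11a to Setdb2 on chromosome 14, and 4 genes each of the Slfn, Ly6 and Trim30 clusters on chromosomes 11, 15 and 7. Within the Slfn run, Slfn4 rose from 0.253, 1.07 and 0.251 CPM to 208, 145 and 203 CPM (log2FC 8.44 ± 0.34, and 9.51 without eGFP replicate 2), whereas Slfn2 started at 131, 193 and 118 CPM and reached 919, 801 and 855 CPM (log2FC 2.54 ± 0.15). In the Ly6 run Ly6e, a GPI-anchored protein that restricts coronavirus entry, went from 18.2, 28.4 and 17.9 CPM to 1240.4, 1214 and 1339.5 CPM (log2FC 5.88 ± 0.19, adjusted p = 9.06e-10). Ly6a, which encodes the stem cell antigen Sca-1, was under 1 CPM in every control and at 53.6, 44.8 and 71.0 CPM with Ifnb1eGFP supernatant. Some members of runs were near 0 in the controls. Ly6m and Ly6c1 had control means of 0.0165 and 0.0165 CPM against 0.379 and 0.572 CPM, and without them the Ly6 run would fall short of 4 genes. Gm52955 and Ms4a4d had control means of 0 CPM. Members of several runs overlap in their annotated spans. In the chromosome 11 run from Irgm1, the annotated span of Or2v1 covers Tgtp2 and Ifi47, and that of Gm12185 covers Psme2b and 9930111J21Rik1. In other runs the span of Gbp8 covers Gbp9 and overlaps Gbp4, and that of Ifit1bl2 covers Ifit1. The span of Sp140l2 covers Sp140l1 and Gm7609. Such genes are not separate stretches of the chromosome. Many members of these clusters are related copies between which the counting can split reads, and how far shared reads enter the values within a run was not tested.

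**Figure D2:**
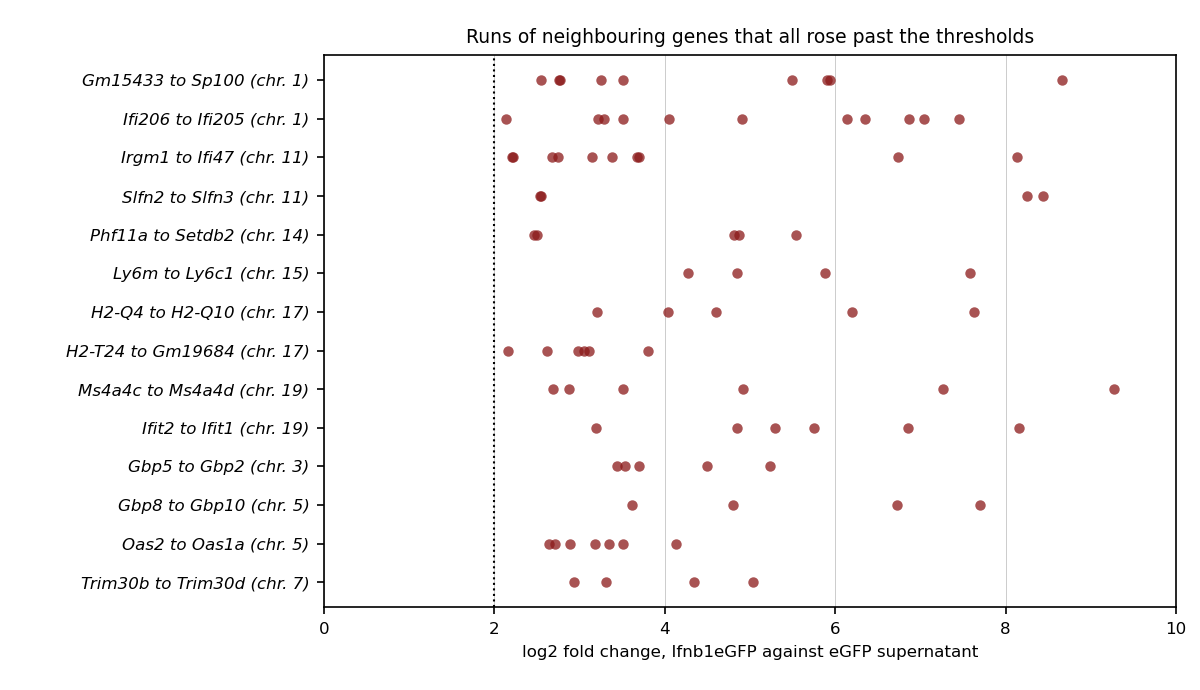
Log2FC of Ifnb1eGFP against eGFP supernatant for each gene of the 14 runs of at least 4 neighboring protein-coding genes that all rose past the thresholds, 1 point per gene, with the dotted line at the threshold of 2. The run from Ifi206 to Ifi205 holds 11 genes between 2.13 and 7.45, the value of Ifi208 (9.32 without eGFP replicate 2).

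MHC class I presentation rose at nearly every step. Of 23 tested genes, 20 were higher and 3 lower, 10 past the thresholds (median log2FC 1.93). The classical heavy chain gene H2-K1 stood at 522, 556 and 476 CPM with eGFP supernatant and at 2987, 3927 and 3183 CPM with Ifnb1eGFP supernatant (log2FC 2.70 ± 0.10, adjusted p = 2.57e-09). H2-D1 went from 1576, 1598 and 1381 CPM to 5181, 6942 and 5626 CPM (log2FC 1.96 ± 0.10, adjusted p = 2.56e-08), and B2m, the light chain, from 1276, 1356 and 1216 CPM to 5568, 4986 and 5098 CPM (log2FC 2.02 ± 0.07, adjusted p = 9.75e-10). For these abundant genes the controls, eGFP replicate 2 among them, lay within a narrow range. The peptide transporter gene Tap1 was at 32.7, 58.1 and 29.6 CPM against 207, 296 and 240.5 CPM (log2FC 2.63 ± 0.22, adjusted p = 1.57e-06), and the immunoproteasome subunits Psmb9 and Psmb8 had log2FCs of 2.24 ± 0.14 and 1.84 ± 0.08. Nlrc5, the transactivator of class I genes, rose by 2.28 ± 0.19. The nonclassical H2-Q6 rose from under 1 CPM in each control to 56.3, 60.7 and 61.8 CPM, with reads that may be shared with H2-Q7. The 3 lower members, Calr (log2FC -0.96 ± 0.04), Canx (-0.37 ± 0.05) and Pdia3 (-0.27 ± 0.04), are general chaperones of the endoplasmic reticulum that also serve class I folding.

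MHC class II presentation did not move in the same way. Of 12 tested genes, 3 were higher and 3 lower, none past the thresholds (median log2FC 0.13), which is close to the shares of all genes. H2-Aa was at 20.2, 19.6 and 21.8 CPM against 25.03, 20.9 and 27.9 CPM (log2FC 0.26 ± 0.11, adjusted p = 0.0704), H2-Ab1 at 14.4, 13.2 and 12.8 CPM against 12.5, 14.3 and 15.7 CPM (log2FC 0.07 ± 0.10, adjusted p = 0.591) and the invariant chain gene Cd74 at 95.9, 98.3 and 110.2 CPM against 103, 109 and 128 CPM (log2FC 0.16 ± 0.10, adjusted p = 0.207). In all 3 genes the groups overlapped. H2-Eb1 was lower (-0.54 ± 0.13, adjusted p = 0.00382), as was Ciita, the class II transactivator, from 1.36, 0.999 and 1.00 CPM to 0.430, 0.298 and 0.543 CPM (log2FC -1.39 ± 0.25, adjusted p = 6.10e-04). Ifi30, a thiol reductase of the class II pathway, fell by 1.10 ± 0.06. The higher members included the proteases Ctss (4794, 4598 and 4861 CPM against 9700.4, 8131 and 8803 CPM, log2FC 0.90 ± 0.06) and Lgmn (699.8, 694 and 627 CPM against 1952, 2082 and 1974 CPM, log2FC 1.57 ± 0.05), which also have roles outside class II presentation.

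Of 19 tested genes listed for T cell costimulation and checkpoints, 12 were higher and 5 lower, 6 and 1 of them past the thresholds (median log2FC 0.92). The list also holds Cd69 and Aif1, which the paper names as macrophage activation markers and which are not such ligands. Both were among the 6. Cd86, a costimulatory ligand of CD28, rose from 6.19, 8.31 and 5.85 CPM to 60.5, 50.1 and 54.8 CPM (log2FC 3.02 ± 0.14, adjusted p = 9.41e-09). The second CD28 ligand gene, Cd80, was lower, at 27.3, 25.3 and 29.6 CPM against 22.3, 21.1 and 22.7 CPM (log2FC -0.31 ± 0.07, adjusted p = 0.0021). Cd40, the receptor for CD40 ligand, rose to a small extent (log2FC 0.92 ± 0.21). Inhibitory ligands rose as well. Cd274, which encodes PD-L1, was at 80.0, 109.7 and 70.4 CPM against 622, 494 and 493 CPM (log2FC 2.63 ± 0.16, adjusted p = 7.85e-08), and Lgals9, a ligand of TIM-3, had a log2FC of 2.11 ± 0.13. Cd276, which encodes the checkpoint ligand B7-H3, fell from 41.3, 38.2 and 37.8 CPM to 7.31, 9.04 and 6.80 CPM (log2FC -2.34 ± 0.11, adjusted p = 9.32e-09). The groups were apart in each of these genes, and Cd69, an early activation marker, went from under 1 CPM in each control to 9.66, 6.36 and 7.84 CPM.

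Chemokines were mostly higher. Of 19 tested, 12 were higher and 4 lower, 8 and 1 past the thresholds (median log2FC 1.48). Cxcl10, a CXCR3 ligand that draws activated T cells, stood at 0.328, 1.78 and 0.276 CPM against 21.8, 15.3 and 14.3 CPM (log2FC 4.41 ± 0.45, adjusted p = 7.46e-06, and 5.81 without eGFP replicate 2). Ccl8 and Ccl7, monocyte chemoattractants, rose from 1.82, 2.19 and 2.33 CPM to 35.8, 39.0 and 41.96 CPM (log2FC 4.20 ± 0.15) and from 22.03, 32.3 and 21.5 CPM to 143, 176 and 165 CPM (log2FC 2.67 ± 0.17). Ccl12 and Ccl5 had log2FCs of 2.02 ± 0.27 and 3.15 ± 0.43. Some of the 8 were low. Ccl5, Cxcl5, Cxcl9 and Cxcl12 were under 1 CPM in every control. Their means with Ifnb1eGFP supernatant were 2.53, 1.08, 0.252 and 2.12 CPM. Cxcl12 is also counted among the stromal markers. The related Ccl2 did not pass the test and its groups overlapped, with 73.0, 104 and 69.7 CPM against 77.6, 104 and 84.1 CPM (log2FC 0.11 ± 0.18, adjusted p = 0.63). Cxcl16, a scavenger receptor and CXCR6 ligand, rose by 1.71 ± 0.10, whereas Cxcl14 fell from 29.7, 27.4 and 29.0 CPM to 8.72, 9.73 and 10.0 CPM (log2FC -1.59 ± 0.11, adjusted p = 3.44e-07).

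Among 21 tested cytokines and growth factors, 9 were higher and 9 lower (median log2FC 0.37), 5 and 1 past the thresholds. Tnfsf10, which encodes the death ligand TRAIL, rose from 0.253, 0.804 and 0.301 CPM to 17.8, 15.2 and 16.2 CPM (log2FC 5.16 ± 0.25, adjusted p = 1.56e-08, and 5.87 without eGFP replicate 2). Il15, a growth factor for NK and memory T cells, went from 11.7, 15.6 and 11.7 CPM to 84.1, 75.3 and 73.4 CPM (log2FC 2.57 ± 0.11, adjusted p = 6.51e-09). Il18 rose (log2FC 2.16 ± 0.09) and so did Il18bp, the soluble inhibitor of IL-18, from 4.22, 5.58 and 4.67 CPM to 66.7, 67.8 and 68.0 CPM (log2FC 3.80 ± 0.09, adjusted p = 1.54e-10). The anti-inflammatory Il10 was at 0.581, 0.609 and 0.502 CPM against 6.60, 7.003 and 7.43 CPM (log2FC 3.63 ± 0.16, adjusted p = 8.31e-09). Tnf did not pass the test, and its groups overlapped at 19.8, 11.2 and 7.91 CPM against 19.4, 23.1 and 13.6 CPM (log2FC 0.53 ± 0.38, adjusted p = 0.262).

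Growth factors were among the 9 lower members. Hbegf, an EGF receptor ligand, fell from 41.7, 39.6 and 32.9 CPM to 7.59, 8.02 and 6.86 CPM (log2FC -2.35 ± 0.11, adjusted p = 1.73e-08), Pdgfa had a log2FC of -1.61 ± 0.16 and Vegfa, the angiogenic factor, of -0.69 ± 0.14. Spp1, which encodes osteopontin, was at 10927, 11805 and 11563 CPM against 4291, 4471 and 4579 CPM (log2FC -1.36 ± 0.06, adjusted p = 1.43e-08), and Csf1, which encodes M-CSF, fell by 1.07 ± 0.06. Of 17 receptors for chemokines and growth factors, 8 were higher and 7 lower. The monocyte receptor Ccr2 fell from 7.86, 9.21 and 10.4 CPM to 1.16, 0.869 and 1.37 CPM (log2FC -3.003 ± 0.17, adjusted p = 4.82e-08). The GM-CSF receptor chains Csf2ra and Csf2rb fell by 1.09 ± 0.21 and 0.83 ± 0.08.

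**Figure D3:**
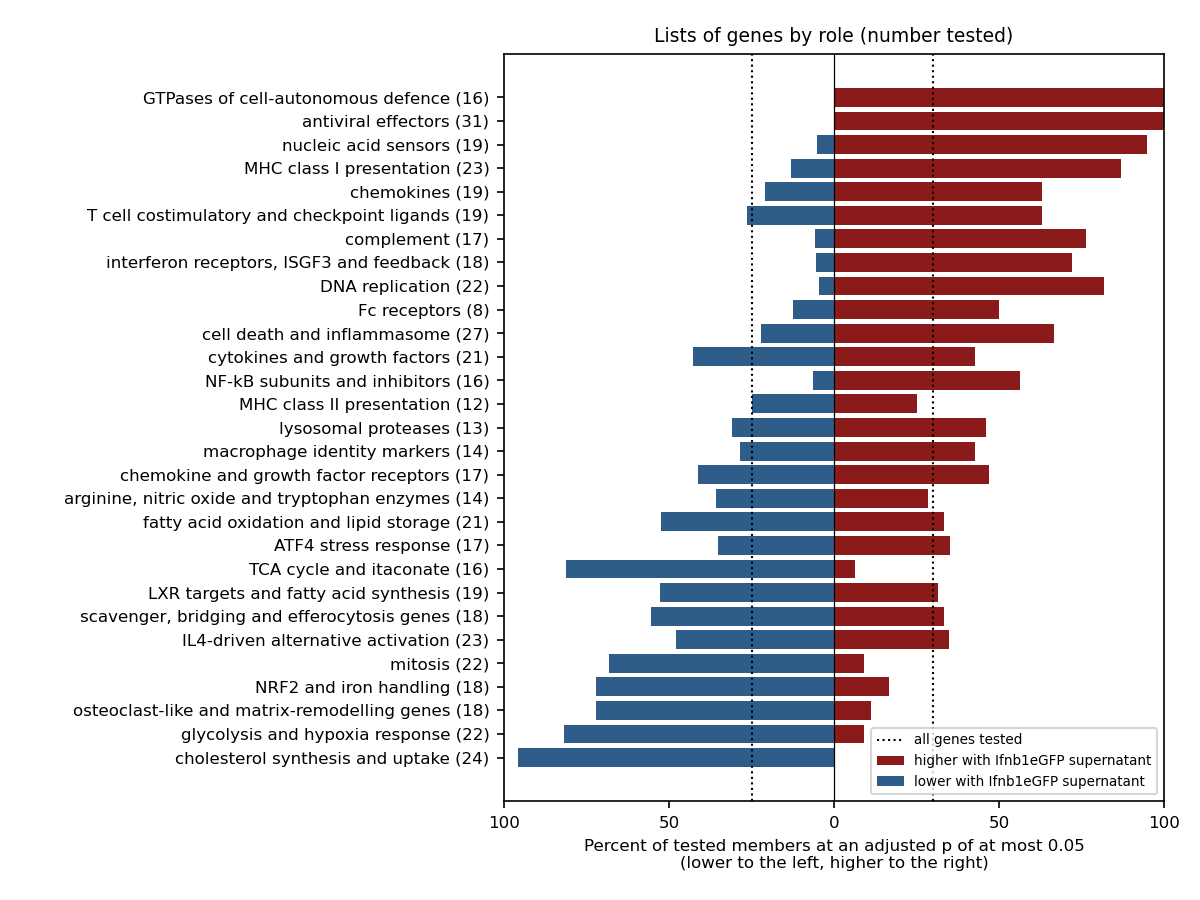
Percent of the tested members of each list that were higher (red, to the right) or lower (blue, to the left) with Ifnb1eGFP supernatant (adjusted p up to 0.05), lists ordered by median log2FC with the number tested in parentheses, and dotted lines at the 30.1% higher and 25.0% lower of all genes tested. The 31 antiviral effectors and 16 GTPases were all higher, and 23 of 24 cholesterol genes were lower.

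The genes that IL4 drives in alternative activation did not move together. Of 23 tested, 8 were higher and 11 lower, 4 of the lower ones past the thresholds (median log2FC -0.52, -0.27 without eGFP replicate 2 and -0.32 without Ifnb1eGFP replicate 1). Mrc1, which encodes the mannose receptor CD206, did not pass the test, at 711, 813 and 748 CPM against 825, 811 and 839 CPM with overlapping groups (log2FC 0.12 ± 0.08, adjusted p = 0.218). Retnla was at 64.2, 71.3 and 54.7 CPM against 64.7, 58.8 and 45.4 CPM (adjusted p = 0.323), and Arg1, under 1 CPM in all 6 libraries, did not pass either (adjusted p = 0.228). Chil3, the chitinase-like Ym1, rose from 68.4, 74.9 and 81.5 CPM to 129, 128 and 127 CPM (log2FC 0.77 ± 0.09, adjusted p = 1.73e-05). Tgm2, a transglutaminase, rose by 1.42 ± 0.16, Pparg by 1.01 ± 0.08 and Il4ra, the IL4 receptor chain, by 0.89 ± 0.09. The transcription factor gene Egr2 fell from 142, 125 and 115 CPM to 12.9, 15.9 and 13.9 CPM (log2FC -3.16 ± 0.11, adjusted p = 1.40e-09), and Irf4, Klf4 and Myc had log2FCs of -1.25 ± 0.15, -1.15 ± 0.09 and -1.44 ± 0.19. Fn1, which encodes fibronectin, fell from 522, 476 and 503 CPM to 31.1, 17.1 and 28.3 CPM, 19.6-fold lower (log2FC -4.29 ± 0.25, adjusted p = 7.72e-08).

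Surface and uptake genes were mixed. Of 18 scavenger, bridging and efferocytosis genes, 6 were higher and 10 lower (median log2FC -0.48). Mfge8, the bridge between phosphatidylserine and integrins, fell from 1097, 964 and 780.2 CPM to 113, 150.4 and 109 CPM (log2FC -2.93 ± 0.16, adjusted p = 4.04e-08). The lipid scavenger receptor Cd36 was at 8659, 7969.9 and 7952 CPM against 4335, 3705 and 3760.4 CPM (log2FC -1.06 ± 0.06, adjusted p = 8.19e-08), and Stab1 and Cd163, scavenger receptors that mark M2-like cells, had log2FCs of -1.32 ± 0.17 and -1.54 ± 0.15. In the TAM kinase family Axl rose (log2FC 1.24 ± 0.22, adjusted p = 5.58e-04), Tyro3 fell (log2FC -2.17 ± 0.17, adjusted p = 8.85e-07) and their ligand gene Gas6 fell (log2FC -0.88 ± 0.17, adjusted p = 0.00123). Among 8 Fc receptor genes 4 were higher and 1 lower. Fcgr1, the high-affinity IgG receptor, went from 72.8, 112 and 63.6 CPM to 1294, 1119.8 and 1183 CPM (log2FC 3.85 ± 0.19, adjusted p = 1.68e-08) and Fcgr4 from 68.4, 78.9 and 59.9 CPM to 362, 308 and 336 CPM (log2FC 2.28 ± 0.10). The inhibitory Fcgr2b was the 1 lower member (log2FC -0.56 ± 0.08, adjusted p = 1.02e-04).

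Complement genes were higher in 13 of 17 tested members and lower in 1 (median log2FC 0.92). Cfb, the protease of the alternative pathway, rose from 0.783, 0.536 and 0.753 CPM to 19.4, 15.3 and 14.6 CPM (log2FC 4.57 ± 0.24, adjusted p = 3.02e-08), and eGFP replicate 2 was the lowest control. C3 was at 4.24, 4.02 and 5.04 CPM against 7.81, 7.996 and 9.38 CPM (log2FC 0.92 ± 0.12) and C1qa at 56.3, 71.1 and 57.2 CPM against 101, 206 and 153 CPM (log2FC 1.32 ± 0.22). C4b was at a single count in each control library and at 2.53, 2.51 and 2.15 CPM with Ifnb1eGFP supernatant.

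Osteoclast-like and matrix-remodelling genes fell in 13 of 18 tested members, 6 past the thresholds, and rose in 2 (median log2FC -0.78). Mmp9, a gelatinase, stood at 355, 398 and 307 CPM with eGFP supernatant and at 9.81, 12.8 and 8.43 CPM with Ifnb1eGFP supernatant, 34.1-fold lower (log2FC -5.09 ± 0.17, adjusted p = 1.03e-09). Mmp12, the macrophage elastase, went from 8980.5, 8053 and 8959 CPM to 1175, 862 and 1044 CPM (log2FC -3.08 ± 0.11, adjusted p = 1.69e-09). The fusion gene Dcstamp, needed for multinucleated cells, fell from 61.4, 61.6 and 77.5 CPM to 3.62, 2.56 and 3.08 CPM (log2FC -4.44 ± 0.17, adjusted p = 2.24e-09), and its relative Ocstamp had a log2FC of -2.54 ± 0.29. Itgb3, which encodes the integrin β3 chain, was at 130.4, 126 and 121 CPM against 18.4, 22.1 and 20.4 CPM (log2FC -2.63 ± 0.08, adjusted p = 8.27e-10), and the cathepsin K gene Ctsk had a log2FC of -1.80 ± 0.13. The controls were close to each other in all of these, and eGFP replicate 2 did not stand apart. A collagenase gene, Mmp13, was 1 of the 2 higher members (log2FC 1.10 ± 0.14, adjusted p = 4.18e-05).

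The integrin genes Itgax and Itgam and the lysozyme gene Lyz2 fell with them. Integrins did not fall as a family. Of 11 tested genes named Itga with a number, 3 were higher and 4 lower (median log2FC 0.06). Of 8 named Itgb with a number, 2 were higher and 4 lower (median log2FC -0.44). These families were grouped after the values were seen. Itgax, which encodes CD11c and was in no list, was among the 10 largest falls of abundant genes outside the lists, from 804, 760.5 and 764 CPM to 27.5, 26.4 and 22.8 CPM, 30.4-fold lower (log2FC -4.93 ± 0.09, adjusted p = 4.69e-11). Itgam, which encodes CD11b, was at 1627, 1612 and 1622 CPM against 397, 405 and 426 CPM (log2FC -1.99 ± 0.04, adjusted p = 1.25e-10), and Lyz2, which encodes lysozyme, at 12267, 12092 and 12828 CPM against 4322, 3905 and 4106 CPM (log2FC -1.59 ± 0.05, adjusted p = 8.27e-10). Adgre1 and Cd68, macrophage markers of the same list, rose by only 0.21 ± 0.04 and 0.35 ± 0.08, so the identity markers did not move as 1 set. The lysosomal membrane protein gene Gpnmb fell from 23557, 24163 and 20528 CPM to 11592, 13249 and 11461 CPM (log2FC -0.91 ± 0.07, adjusted p = 1.05e-06) and had the largest fall in mean CPM of all genes, followed by Lyz2, Mmp12, Spp1 and Psap. The largest rises in mean CPM were those of H2-D1, Ctss, B2m, H2-K1 and Ifit3. Of 13 lysosomal proteases and regulators 6 were higher and 4 lower. Ctsc rose past the thresholds, from 37.8, 39.3 and 38.3 CPM to 217, 179 and 205 CPM (log2FC 2.38 ± 0.07, adjusted p = 6.07e-10), while Ctsl and Ctsd had log2FCs of 0.48 ± 0.06 and -0.19 ± 0.04.

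**Figure D4:**
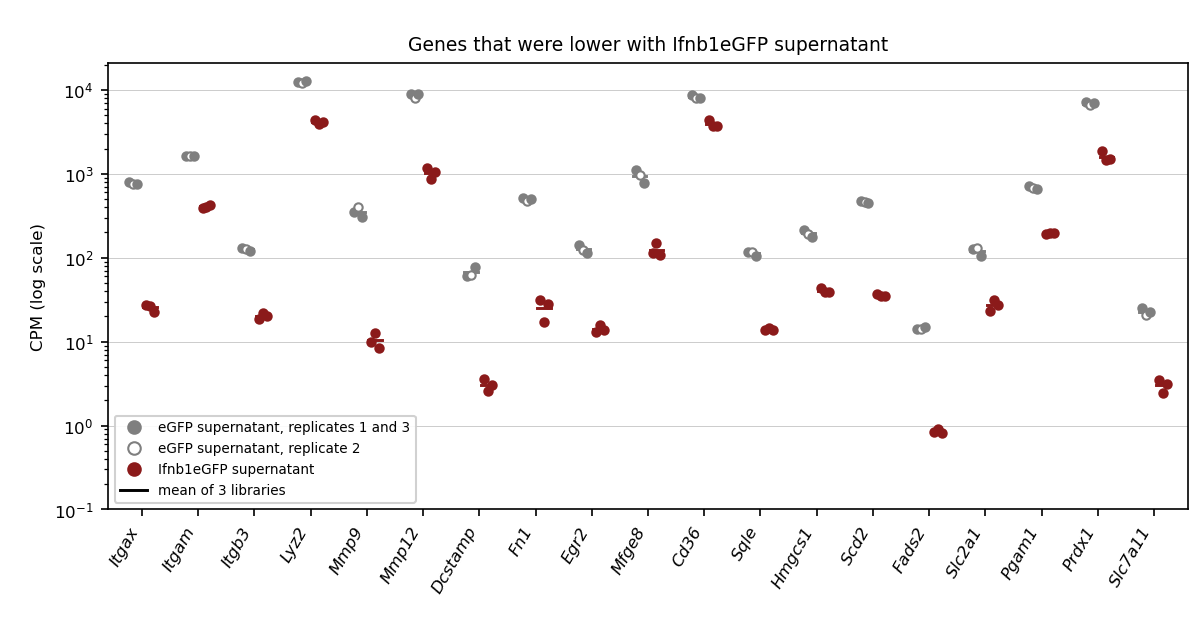
CPM on a log scale of 19 genes that were lower with Ifnb1eGFP supernatant, in each library, with eGFP supernatant in gray (replicate 2 as an open circle), Ifnb1eGFP supernatant in red and short lines at group means. All red points lie below all controls, and the open circles lie close to the other controls.

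Cholesterol synthesis and uptake fell nearly as a whole. Of 24 tested genes, 23 were lower, 12 past the thresholds, and 0 were higher (median log2FC -1.89). Hmgcs1, which encodes the HMG-CoA synthase at the start of the pathway, fell from 216, 193 and 177 CPM to 43.4, 38.6 and 38.9 CPM (log2FC -2.28 ± 0.08, adjusted p = 1.99e-09). Further along, Sqle, which encodes squalene epoxidase, was at 118, 117 and 106 CPM against 13.6, 14.8 and 13.7 CPM (log2FC -3.02 ± 0.07, adjusted p = 1.33e-10). Insig1, which holds SREBP in the endoplasmic reticulum, fell from 109, 107 and 94.5 CPM to 25.3, 24.6 and 26.3 CPM (log2FC -2.03 ± 0.07, adjusted p = 2.00e-09), and Srebf2, the master regulator of the pathway, fell by 1.54 ± 0.14. In each named gene the controls were close to each other, and leaving out eGFP replicate 2 moved the log2FC by little, for example to -3.002 for Sqle and -2.29 for Hmgcs1.

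Fatty acid genes were mixed. Of 19 LXR targets and fatty acid synthesis genes, 6 were higher and 10 lower (median log2FC -0.45, and -0.30 without Ifnb1eGFP replicate 1). Scd2, a stearoyl-CoA desaturase, fell from 471, 457 and 446 CPM to 36.5, 35.4 and 35.1 CPM (log2FC -3.68 ± 0.04, adjusted p = 1.18e-12) and Fads2, the first desaturase of polyunsaturated fatty acids, from 14.2, 14.2 and 15.01 CPM to 0.834, 0.919 and 0.825 CPM (log2FC -4.07 ± 0.14, adjusted p = 1.63e-09). Fasn, the fatty acid synthase gene, had a log2FC of -1.54 ± 0.16. The apolipoprotein gene Apoe rose, with 628, 628 and 407 CPM against 868, 1472 and 850.1 CPM (log2FC 0.94 ± 0.23, adjusted p = 0.00424), and the exporter gene Abcg1 rose by 0.26 ± 0.06. In lipid storage and oxidation, 7 of 21 genes were higher and 11 lower. Plin2, the coat protein of lipid droplets, went from 1164, 1229 and 1117 CPM to 2932, 3220.5 and 2990.3 CPM (log2FC 1.38 ± 0.05, adjusted p = 2.24e-09). Cpt1a, the gate of mitochondrial oxidation, rose by 0.70 ± 0.04, while Hadha fell by 0.50 ± 0.03 and the fatty acid carrier gene Fabp4 by 1.81 ± 0.10.

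Genes of glycolysis and the hypoxia response were lower in 18 of 22 tested members and higher in 2 (median log2FC -0.90). The glucose transporter gene Slc2a1 fell from 128, 130.0 and 105 CPM to 23.03, 31.1 and 27.2 CPM (log2FC -2.16 ± 0.10, adjusted p = 1.65e-08). Among enzymes, Pgam1 was at 711, 682 and 652 CPM against 190.0, 199 and 198 CPM (log2FC -1.80 ± 0.04, adjusted p = 1.33e-10), Eno1 had a log2FC of -1.33 ± 0.08 and Ldha of -0.46 ± 0.05. Pdk1, which encodes a kinase that inhibits pyruvate dehydrogenase, fell by 1.69 ± 0.05. Genes of the TCA cycle were lower in 13 of 16 tested members, with small changes (median log2FC -0.20), among them Idh1, the cytosolic enzyme (log2FC -0.77 ± 0.07), and Cs, the citrate synthase gene (log2FC -0.43 ± 0.04). The 1 higher member of that list was Acod1, which makes itaconate, at 0.177, 0.317 and 0.201 CPM against 1.42, 0.795 and 1.04 CPM (log2FC 2.21 ± 0.33, adjusted p = 1.67e-04). Of 14 arginine and related enzymes 4 were higher and 5 lower, with Odc1, the start of polyamine synthesis, at a log2FC of 1.04 ± 0.05 and the arginine carrier gene Slc7a2 at -1.11 ± 0.07.

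Most redox genes fell, and genes of a stress response were mixed. Of 18 NRF2 and iron genes, 13 were lower and 3 higher (median log2FC -0.65). The peroxiredoxin gene Prdx1 went from 7145, 6555 and 6961 CPM to 1853, 1445 and 1519 CPM (log2FC -2.10 ± 0.09, adjusted p = 4.46e-09) and Slc7a11, the cystine importer, from 25.3, 20.5 and 22.3 CPM to 3.46, 2.43 and 3.15 CPM (log2FC -2.91 ± 0.14, adjusted p = 1.67e-08). Hmox1, heme oxygenase, and Fth1, the ferritin heavy chain, fell by 0.89 ± 0.07 and 0.70 ± 0.03, and the transferrin receptor gene Tfrc by 1.59 ± 0.19. Sqstm1, the autophagy receptor p62, was higher (log2FC 0.70 ± 0.06). Of 17 genes of the ATF4 response, 6 were higher and 6 lower (median log2FC -0.15). Nupr1 rose from 2.70, 3.87 and 3.16 CPM to 34.1, 33.6 and 34.3 CPM (log2FC 3.38 ± 0.10, adjusted p = 5.38e-10) and Ddit3, which encodes CHOP, from 20.5, 26.4 and 20.1 CPM to 120.0, 152 and 131 CPM (log2FC 2.58 ± 0.11, adjusted p = 6.51e-09). Psat1, an enzyme of serine synthesis, fell from 65.6, 74.2 and 72.0 CPM to 18.1, 19.3 and 19.4 CPM (log2FC -1.90 ± 0.06, adjusted p = 1.03e-09), and Asns, the asparagine synthetase gene, did not pass the test (log2FC -0.15 ± 0.08, adjusted p = 0.127).

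Most DNA replication genes rose while most mitosis genes fell. Of 22 DNA replication genes, 18 were higher and 1 lower, none past the thresholds (median log2FC 0.62). Mcm6, a subunit of the replicative helicase, rose from 69.1, 82.9 and 76.6 CPM to 182, 181 and 185 CPM (log2FC 1.26 ± 0.06, adjusted p = 2.02e-08) and Mcm2 from 20.3, 23.2 and 21.6 CPM to 30.1, 46.4 and 39.0 CPM (log2FC 0.83 ± 0.13, adjusted p = 2.18e-04). The 1 lower member was Pcna, the sliding clamp (log2FC -0.32 ± 0.04). Of 22 mitosis genes, 15 were lower and 2 higher, none past the thresholds (median log2FC -0.52). Ccnb1, which encodes cyclin B1, was at 8.79, 9.89 and 10.9 CPM against 5.08, 4.97 and 5.30 CPM (log2FC -0.94 ± 0.11, adjusted p = 2.26e-05), the kinase gene Plk1 fell by 1.04 ± 0.17 and the proliferation marker Mki67 by 0.58 ± 0.12. Tpx2, a spindle assembly factor, went the other way, from 18.5, 20.1 and 20.4 CPM to 55.4, 46.9 and 48.4 CPM (log2FC 1.35 ± 0.08, adjusted p = 7.75e-08).

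Of 27 genes of cell death and the inflammasome, 18 were higher and 6 lower (median log2FC 0.47). Mlkl, the executor of necroptosis, rose from 19.4, 23.3 and 18.2 CPM to 76.2, 71.6 and 76.7 CPM (log2FC 1.88 ± 0.08, adjusted p = 6.30e-09). Casp4, the sensor of cytosolic lipopolysaccharide known as caspase-11 in mice, went from 19.6, 22.7 and 19.6 CPM to 72.9, 60.1 and 70.4 CPM (log2FC 1.72 ± 0.08, adjusted p = 1.67e-08), and Casp1, Casp8 and Gsdmd had log2FCs of 1.09 ± 0.07, 1.04 ± 0.05 and 0.73 ± 0.05. In the BCL2 family, the death promoter Bcl2l11 rose by 1.08 ± 0.05 and the survival factor Mcl1 by 0.66 ± 0.06, while Bcl2 fell from 24.2, 22.2 and 23.3 CPM to 8.72, 8.34 and 8.80 CPM (log2FC -1.43 ± 0.08, adjusted p = 3.24e-08). Of 16 NF-kB subunits and inhibitors, 9 were higher and 1 lower. Nfkbiz, an atypical inhibitor that also activates some targets, rose from 2.53, 3.24 and 3.51 CPM to 7.48, 7.72 and 8.71 CPM (log2FC 1.37 ± 0.14, adjusted p = 6.85e-06), and the 1 lower member was Tnfaip3, which encodes A20.

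Large changes also occurred outside the lists. Among protein-coding genes past the thresholds with a mean of at least 10 CPM in the higher group and in no list, the 10 largest rises were Ms4a4c, Slfn4, Slfn1, Ifit1bl1, Apol9b, Ly6a and 4 Ifi200 genes, and all but Apol9b lie in the runs above. None of the 10 largest falls lay in a run. Uchl1, a deubiquitinase known from neurons, went from 20.7, 19.8 and 17.3 CPM to 0.632, 0.844 and 0.804 CPM (log2FC -4.65 ± 0.15, adjusted p = 8.27e-10). The adaptor gene Lat, best known in T cells, went from 16.5, 14.3 and 15.7 CPM to 0.607, 0.745 and 0.847 CPM (log2FC -4.39 ± 0.12, adjusted p = 4.29e-10). T and NK cell markers summed to 1.04, 1.22 and 0.979 CPM against 0.531, 0.124 and 0.326 CPM. Their 2 tested members were lower, 1 without eGFP replicate 2. The part of such cells in the fall of Lat was not tested. Mamdc2 fell from 141, 112 and 109 CPM to 6.88, 4.64 and 4.26 CPM (log2FC -4.52 ± 0.17, adjusted p = 2.53e-09). A pair of sphingolipid enzymes was among them, Smpd3 (log2FC -4.10 ± 0.16), a sphingomyelinase, and Sphk1 (log2FC -3.97 ± 0.13), which makes sphingosine 1-phosphate.

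Some markers of other cells changed as well, and not in 1 direction. Of 4 tested B cell markers 3 were higher, Cd79b, Pax5 and Ebf1, all under 1 CPM in every library, and 1 was lower. Without 1 library these low calls were partly lost, that of Cd79b without eGFP replicate 2 or Ifnb1eGFP replicate 3 (adjusted p = 0.0646 and 0.0702) and that of Ebf1 without eGFP replicate 2 or 3 or Ifnb1eGFP replicate 1 (adjusted p = 0.0691, 0.0844 and 0.0923). The lower gene, Ighm, the immunoglobulin heavy chain gene, made up most of the list's sum and fell from 17.3, 15.4 and 25.8 CPM to 0.126, 0.348 and 0.174 CPM (log2FC -6.48 ± 0.56, adjusted p = 1.78e-06). Of 2 tested neutrophil markers, Csf3r, the G-CSF receptor gene, rose from 25.04, 26.9 and 27.4 CPM to 50.1, 49.1 and 53.9 CPM (log2FC 0.95 ± 0.07, adjusted p = 5.04e-07) and S100a8 fell from 4.95, 4.31 and 4.19 CPM to 0.531, 0.372 and 0.413 CPM (log2FC -3.35 ± 0.30, adjusted p = 2.42e-06). The fibroblast genes Dcn (9.88, 4.95 and 12.1 CPM against 39.7, 19.9 and 33.8 CPM, log2FC 1.80 ± 0.40, adjusted p = 0.00256) and Pdgfra (log2FC 1.67 ± 0.35, adjusted p = 0.00175) were higher, while Col1a1 was lower (22.6, 10.7 and 17.0 CPM against 6.68, 9.51 and 8.54 CPM, log2FC -1.03 ± 0.29, adjusted p = 0.0105). Col1a1 was not called without eGFP replicate 1 (adjusted p = 0.0519). For these stromal genes eGFP replicate 2 was the lowest control, the reverse of its place among ISGs. The part of such cells in the changes of other lists was not tested.

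The same genes could be set beside the second comparison of the series, rIFNβ against untreated control, which shares no library with this one and had no supernatant in either group. Stat2 had a log2FC of 3.08 with Ifnb1eGFP against eGFP supernatant, 3.63 without eGFP replicate 2 and 3.69 with rIFNβ. The corresponding values were 4.66, 6.04 and 6.13 for Isg15, and 4.85, 6.64 and 7.07 for Ifit1. For these 3 ISGs the value without that library lay nearer to the rIFNβ value. For 3 genes without a raised eGFP replicate 2 the values were 2.02, 2.07 and 1.96 for B2m, -5.09, -5.001 and -5.32 for Mmp9 and -3.02, -3.002 and -2.98 for Sqle. The difference between the 2 IFNβ effects passed an adjusted p of 0.05 for 0 of 15033 genes by edgeR, and for 11 by DESeq2. At an unadjusted p under 0.05 there were 661 genes by edgeR, and that many of 15033 can fall under it where no effect differs. Across the other settings that number ran from 435 without eGFP replicate 2 to 2342 without Ifnb1eGFP replicate 2. Blocking on replicate gave 1117. With 3 libraries per group, finding 0 genes by edgeR does not show that the effects were alike.

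The excess of ISGs in eGFP replicate 2 can be set beside their rise with Ifnb1eGFP supernatant, for genes chosen by that rise, so the percentages that follow are a description. For 203 genes higher past the thresholds with a control mean of at least 1 CPM, replicate 2 was above both other controls in 178, and its median ratio to their mean was 1.55. Over all 11967 tested genes at that level it was above both in 4031, and the median ratio was 1.01. Its excess over the other 2 controls was a median of 5.86% of the rise with Ifnb1eGFP supernatant in the 203 genes. By list the median was 8.94% for 10 sensors (2.77% to 15.7%), 8.16% for 6 signalling genes, 7.50% for 24 antiviral effectors (1.60% to 15.5%), 5.70% for 16 GTPases and 3.13% for 10 class I genes. In 263 genes lower past the thresholds the median was 0.538% of the fall, with replicate 2 above both others in 62 and below both in 80. The genes with the largest ratio of replicate 2 to the higher of the other 2 controls were Ifit3, Ifi44, Ifi208, Ifit3b and Ifit2. The source of this excess was not tested.

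**Figure D5:**
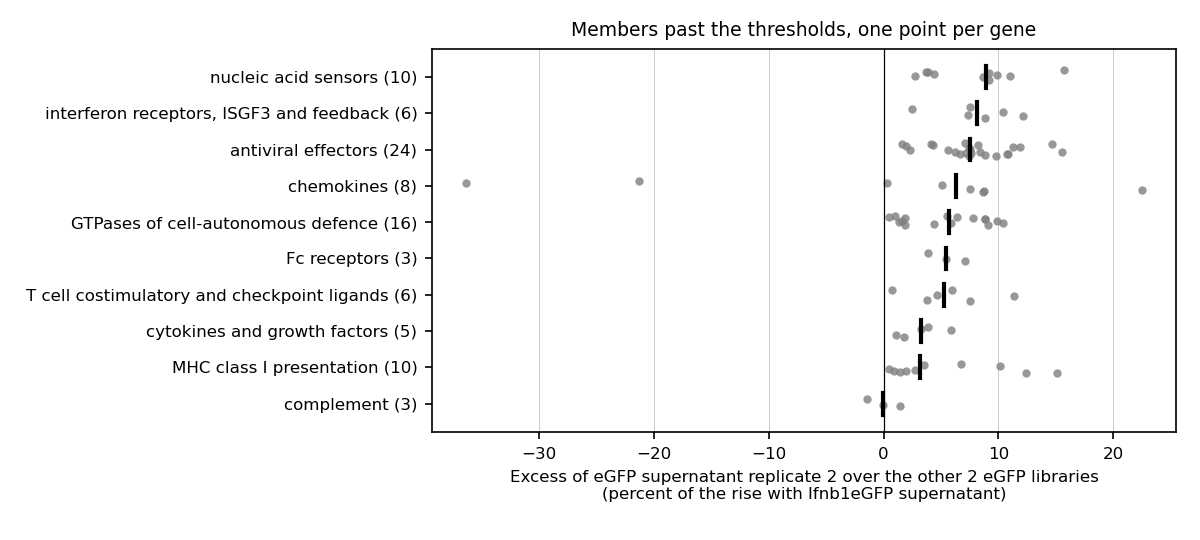
Excess of eGFP replicate 2 over the mean of the other 2 eGFP libraries, as percent of the rise with Ifnb1eGFP supernatant, for members past the thresholds in lists with at least 3 such members, 1 point per gene and a black bar at the median. The medians run from 8.94% for nucleic acid sensors to -0.0343% for complement, and Cxcl5 and Cxcl12, chemokine genes under 1 CPM in each control, lie under 0.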

How the data were processed

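From stranded total RNA libraries (TruSeq), the authors deposited expected counts of RSEM (v1.3.3) per Ensembl gene, not normalized, for 56748 genes in 12 libraries. The build is named as GRCm39 mm10, which joins 2 builds, and positions given here are GENCODE M39 on GRCm39 (56017 genes matched). Promoter sequences are RefSeq on GRCm38.p6, matched by symbol. Counts were rounded, since 12.0% of values were not whole, and 0 columns were left unused. RSEM splits reads between near-identical genes, so single members of such families are uncertain.

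The filter was filterByExpr, which kept 15033 genes. In edgeR 4.0.16 (R 4.3.3), TMM factors and 1 quasi-likelihood model of all 12 libraries gave log2FCs, and p-values were adjusted by Benjamini-Hochberg. The SE was derived from the log2FC and its F statistic. The script was tested on simulated data. Groups came from the sample labels. Where 1 mouse gave several libraries, or where libraries of a group were technical repeats, p-values measure only the spread between libraries. Totals ran from 39181022 to 45348457 counts per library, and a floor of 3 counts per library was kept for folds.

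Members and lists were chosen with earlier results of these data known, and no set test was run. Named were key genes of each list, up to 3 higher and 2 lower members of each list with the largest change (mean of at least 1 CPM), the 10 largest rises and falls outside lists (at least 10 CPM), the 5 largest in CPM, genes raised in eGFP replicate 2 and genes in runs. Other genes were named after their values were seen: Adar, Apobec3, Ccl7, Ccl12, Cd79b, Cd80, Cmpk2, Cs, Csf1, Csf2ra, Csf2rb, Cxcl5, Cxcl9, Cxcl16, Ebf1, Eif2ak2, Eno1, Irf1, Irf8, Itgb3, Klf4, Mcl1, Myc, Pax5, Pdia3, Pdk1, Pgam1, Samhd1, Tlr7 and those of the closing observations. The list gene Crry was not matched, and some list genes are not reported here. Alternatives were DESeq2 1.42.0, RLE factors, library totals, no filter, the replicate number as a block, the 6 libraries alone, lower thresholds and each library left out.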

Additional observations from a re-analysis of the deposited data

How the results depend on the processing

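The 811 genes past the thresholds became 849 with DESeq2 (783 shared), 820 with RLE factors (801), 809 with library totals (807), 906 without a filter (804) and 735 in a fit of the 6 libraries alone (728). Leaving out 1 library gave 762 to 874, of which 384 to 449 were higher and 366 to 425 lower. At the lower thresholds, an absolute log2FC from 1 and an adjusted p up to 0.05, there were 2317 genes, 1084 higher and 1233 lower. Genes whose 2 IFNβ effects differed at an adjusted p up to 0.05 numbered 0 by edgeR, 11 with DESeq2 and 1 without a filter. With 1 library left out there were 0 to 0 such genes. The number at an unadjusted p under 0.05 then ran from 435 to 2342. The cause was not tested.

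The replicate number was tried as a replicate block, which gave 817 genes (798 shared). The deviations from group means of same-numbered libraries had r = 0.0892, 0.252 and 0.244 across genes. Libraries of unlike number in the 2 groups had r from -0.318 to 0.147. Over the 18 same-numbered pairs of the whole series r ran from 0.0582 to 0.252, all above 0, and 13 were over 0.1. Since not every pair was over 0.1, the number was not used as a pairing in the main fit. Whether it marks a shared source was not tested. Under the block H2-Aa (0.26, adjusted p = 0.00403), Tnf (0.59, adjusted p = 0.0310) and Retnla (-0.17, adjusted p = 0.0484) passed the test.

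With DESeq2, 25 antiviral effectors were higher, since it gave no adjusted p for Ifit1, Ifit3b, Mx1, Mx2, Rsad2 and Cmpk2. In small counts, the lower sensors (1, Sting1) were 0 with library totals, without a filter and in the 6 libraries alone, and 0 to 1 with 1 library left out (0 without eGFP replicate 2 or 3 or Ifnb1eGFP replicate 2). Higher glycolysis genes were 1 to 2 with 1 library left out (1 without eGFP replicate 3 or Ifnb1eGFP replicate 1 or 2). Higher mitosis genes were 1 without a filter and 1 to 2 with 1 library left out (1 without Ifnb1eGFP replicate 3). Lower NF-kB genes were 2 with RLE factors and 1 to 3 with 1 library left out, 3 of them without Ifnb1eGFP replicate 2. With 1 library left out, the log2FC of H2-Ab1 ran from -0.0092 (without Ifnb1eGFP replicate 3) to 0.1231, and that of Ccl2 from -0.0212 (without Ifnb1eGFP replicate 2) to 0.3141, and neither was called. That of Gm38431 ran from -3.8457 (without Ifnb1eGFP replicate 2, adjusted p = 0.0112) to 0.5028. Cd79b was not called with DESeq2 or without a filter (adjusted p = 0.0896 and 0.0876). Col1a1 was not called without eGFP replicate 1 (adjusted p = 0.0519). Arg1 was called without Ifnb1eGFP replicate 3 (-1.02), and H2-Aa also without Ifnb1eGFP replicate 2 (adjusted p = 0.0108). Genes near 1 CPM rest on few counts, and changes of low genes are limited by that depth.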

Other observations

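Transcripts of the mitochondrial genome were lower with Ifnb1eGFP supernatant, a group in no list and picked after its values were seen. All mitochondrial genes together took 1.26%, 1.16% and 1.498% of counts in the eGFP libraries and 0.586%, 0.446% and 0.656% in the Ifnb1eGFP libraries, so the groups did not overlap. Of 13 protein-coding genes with the prefix mt-, 12 were lower (median log2FC -1.43). The cytochrome c oxidase gene mt-Co1 was at 5907, 5239 and 6472 CPM against 2921, 2249 and 3163 CPM (log2FC -1.08 ± 0.12, adjusted p = 1.14e-05), and the cytochrome b gene mt-Cytb at 1450.2, 1400.5 and 1809 CPM against 546, 450.1 and 645 CPM (log2FC -1.51 ± 0.14, adjusted p = 2.51e-06). The ribosomal RNA gene mt-Rnr1 had a higher value, at 71.5, 62.2 and 63.5 CPM against 96.6, 72.7 and 92.9 CPM (log2FC 0.41 ± 0.10, adjusted p = 0.00454). The paper does not say how far ribosomal RNA was removed from these total RNA libraries. The part of that step in the value of mt-Rnr1 was not tested. Of 66 nuclear genes with the stem Atp, which encode ATP synthase subunits, proton pumps and other ATPases, 42 were lower and 6 higher (median log2FC -0.31).

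Gene families grouped by symbol stem, also after the values were seen, differed in direction. Of 354 zinc finger genes with the stem Zfp, 202 were higher and 23 lower (median log2FC 0.39), against 30.1% higher and 25.0% lower of all genes. Of 12 Parp genes 9 were higher (median 1.02), and of 11 Tlr genes 9 were higher (median 1.68). Collagen genes with the stem Col were lower in 13 of 28 and higher in 1 (median -0.64), unconventional and other myosins with the stem Myo lower in 10 of 16 and higher in 1 (median -0.52), and annexins lower in 9 of 12 and higher in 3 (median -0.50). Ribosomal protein genes with the stem Rpl were higher in 8 of 50 and lower in 13 (median -0.06).

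The 15 genes farthest above the other 2 libraries of the group in Ifnb1eGFP replicate 2 (group mean of at least 1 CPM) included 6 processed pseudogenes and 5 protein-coding genes. The first of them, Gm38431, was at 0.379, 10.7 and 0.174 CPM with Ifnb1eGFP supernatant and at 6.57, 4.22 and 1.00 CPM with eGFP supernatant, where it varied as well, and it was not called (adjusted p = 0.956).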
